A study of Mus musculus with 1627 samples.

Results

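Type I interferon-stimulated genes were followed in single regulatory T cells (Tregs), CD4+ T cells that carry the transcription factor Foxp3 and restrain immune responses, from the spleen and the injured muscle of mice. The set held 39 genes out of 23725 genes in the count table, and all 39 were found there. They were chosen by name, with earlier results of these data known. Type I interferons bind a receptor made of IFNAR1 and IFNAR2, whose kinases JAK1 and TYK2 set off assembly of the factor ISGF3, which holds STAT2 and IRF9 and binds the interferon-stimulated response element (ISRE) near the start of its target genes, whereas interferon gamma acts mainly through another element, GAS. The products of the targets sense or degrade foreign RNA, block virus entry or release, and, as with USP18 and ISG15, feed back on the response.

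All cells came from male mice of the strain B6 Foxp3-Ires-Gfp, aged 8 months, 4 days after cardiotoxin was injected into muscle. In these mice GFP reports Foxp3, and cells were sorted as DAPI- TCRb+ CD4+ GFP+ before capture in droplets (inDrops), where molecules are tagged at the poly(A) end with a unique molecular identifier (UMI). Of the 1627 cells, 15.9% formed 1 spleen library, and 41.4% and 42.7% formed 2 muscle libraries, called muscle libraries 1 and 2; values are given in this order. Spleens were dissociated mechanically and muscles with collagenase and dispase, so tissue and dissociation cannot be told apart, and no uninjured muscle was analysed here. The labels name no animal, so no difference between tissues could be tested, and every interval below covers counting error at 95% only.

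The spleen library held 982570 UMIs, muscle library 1 held 1533277 and muscle library 2 held 1916496, with medians of 3541, 1976 and 2487.5 per cell. Levels are UMI counts of a gene scaled to the library's total and given in the usual unit, CPM, and 1 UMI was worth 1.02, 0.652 and 0.522 CPM. Foxp3 stood at 368.4, 554.4 and 551.5 CPM and the T cell receptor subunit Cd3e at 220.8, 221.7 and 223.3 CPM, and Cd4 at 383.7, 553.7 and 597.97 CPM. Ribosomal protein genes took 22.3% of spleen UMIs, against 13.4% and 13.7% of those from muscle. The spleen and muscle library 1 shared 1 cell barcode and the muscle libraries shared 11, and none of these cells had identical counts. Sequencing depth also differed, with medians of 42.7, 19.6 and 35.6 mapped reads per UMI.

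The promoters of the set are shown first, because the ISRE is the element that ISGF3 binds near the start of its target genes. RefSeq promoter windows on GRCm38.p6, from 250 bases before to 50 after a start, were found for 32 of the 39 genes. Usp18, Zbp1, Ifi204, Rtp4, Mx1, Parp14 and Ifi27l2a had no window in the table. The ISRE core was searched on both strands as GAAA and GAAA with any 2 bases between them. It occurred in 18 of the 32 genes, or 56.2% (exact interval 37.7% to 73.6%), against 3.99% of the 27025 genes in that table. A longer form, the same core followed by CT, each match of which contains the core, was in 8 of 32 members and in 0.303% of all genes. The GAS motif TTCNNNGAA was in 7 of 32 members, or 21.9%, against 9.55% of all genes.

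Stretches around the matches that lie before the start are printed for Isg15 and for 8 genes that stood higher in muscle, 5′ to 3′ on the strand of the gene. Capitals mark the core or, where the match lies on the other strand, its reverse complement, and overlapping matches run together.
Isg15: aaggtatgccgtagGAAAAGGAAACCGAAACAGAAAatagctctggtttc
Ifit1: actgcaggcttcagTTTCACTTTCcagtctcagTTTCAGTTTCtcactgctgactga
Ifit3: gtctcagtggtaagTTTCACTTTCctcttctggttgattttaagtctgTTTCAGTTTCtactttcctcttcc
Ifit3b: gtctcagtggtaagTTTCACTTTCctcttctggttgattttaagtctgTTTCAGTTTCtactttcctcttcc
Oas1a: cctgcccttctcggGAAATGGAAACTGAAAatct
Ifitm2: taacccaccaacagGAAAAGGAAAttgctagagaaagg
Bst2: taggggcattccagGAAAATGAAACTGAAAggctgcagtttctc
Rsad2: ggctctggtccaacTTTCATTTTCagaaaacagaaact
Trim30a: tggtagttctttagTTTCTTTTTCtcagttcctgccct

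The stretch of Isg15 is chr4:156200861-156200910 on the minus strand and holds 3 overlapping matches. On chromosome 19, all on the plus strand, lie those of Ifit1 (chr19:34640771-34640827), Ifit3 (chr19:34583359-34583430) and Ifit3b (chr19:34607755-34607826). The stretches of Ifit3 and Ifit3b are the same 72 bases, although the genes are separate copies. The others are on the minus strand: Oas1a at chr5:120907526-120907559, Ifitm2 at chr7:140955984-140956021, Bst2 at chr8:71537573-71537616, Rsad2 at chr12:26456549-26456586 and Trim30a at chr7:104465206-104465243. Ifitm3 had 2 matches just after its annotated start instead. A match is a description of the letters and says nothing of binding in these cells.

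**Figure D1:**
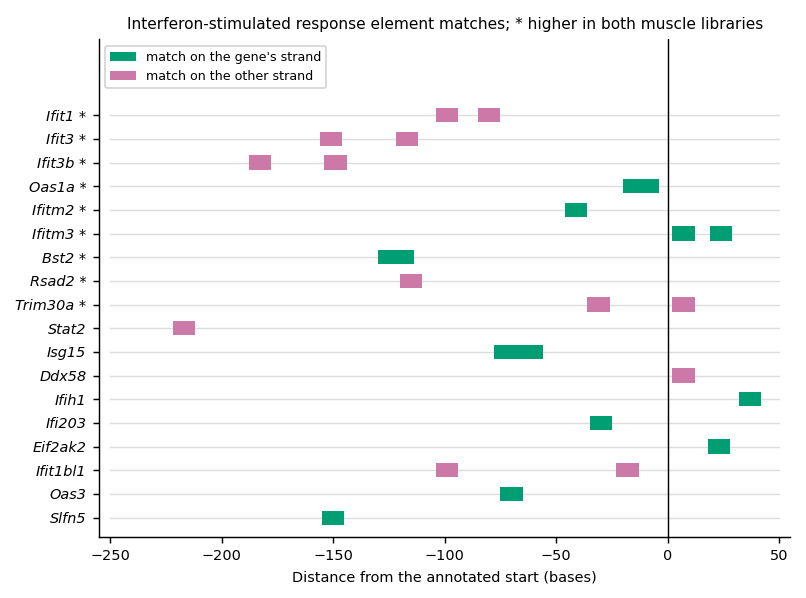
Matches to the ISRE core in the windows of the 18 members that have one (x axis, distance from the annotated start in bases, y axis, gene). Green bars are matches on the strand of the gene and pink bars on the other strand, an asterisk marks genes called higher in muscle, and where a gene has 2 annotated starts both are drawn on 1 line. Most matches lie before the start, as in Ifit1 and Bst2, and those of Ifitm3, Ddx58, Ifih1 and Eif2ak2 lie after it.

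The set as a whole was higher in muscle. Its summed level was 2962 CPM in spleen (2855 to 3071), against 5602 CPM (5485 to 5722) and 5467 CPM (5363 to 5572) in the muscle libraries. Ifi27l2a, a small gene strongly induced by interferon, gave 24.3%, 26.9% and 28.3% of these UMIs. Without it the sums were 2241, 4096 and 3918 CPM, so both muscle libraries stayed above spleen. To call a gene, its level in each muscle library had to be 2-fold or more above, or 2-fold or more below, that of spleen, and its UMIs had to add up to 50 or more in all. This rule is a threshold on size and not a test. It called 18 of the 36 members that reached 50 UMIs higher, against 7.47% of the 7617 genes measured, and 0 lower, against 3.45%. The median log2 fold of the 36 members was 1.11, beside 0.05 over all genes measured. Taken singly, muscle libraries 1 and 2 gave 1.18 and 0.99.

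Counting intervals of the fold lay above 1 in both muscle libraries for 23 of the 36 members and above 2 for 8 of them, Irf7, Usp18, Ifit3, Ifit3b, Ifitm3, Bst2, Rsad2 and Samd9l. None had both intervals below 1. The muscle libraries lay within 1.5-fold of each other for 31 of the 36, and only Cmpk2 and Herc6 differed by more than 2-fold between them. With ribosomal protein genes left out of the totals the rule called 11 members and 5.67% of all measured genes higher, and the median log2 fold of all genes then stood at -0.10. The calls of Oas1a, Rtp4, Isg20, Mx1, Trim30a, Ifi27l2a and Ifi35 ended there.

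**Figure D2:**
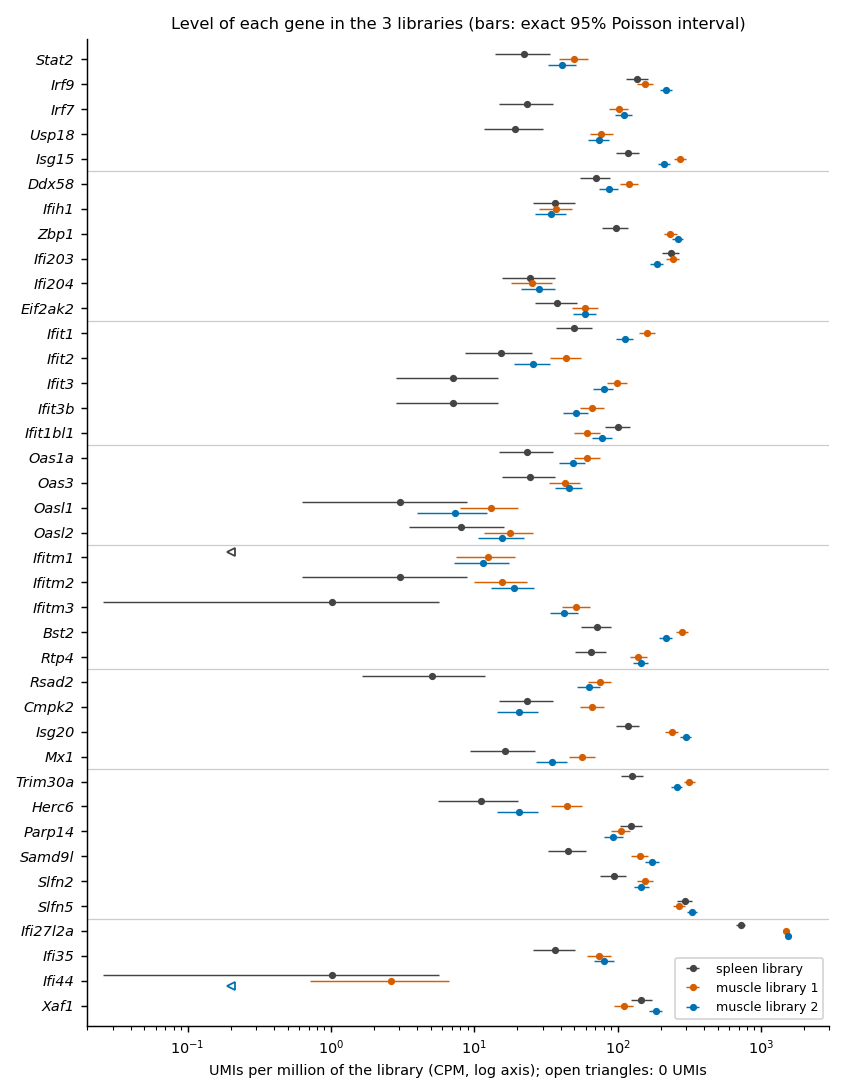
Level of each of the 39 genes (y axis, ordered by role, grey lines between roles) in CPM on a log axis, with exact Poisson intervals. Grey, orange and blue points are spleen and muscle libraries 1 and 2, and open triangles mark 0 UMIs, as for Ifitm1 in spleen. The muscle points lie to the right of spleen for Irf7, Ifit3, Bst2 and Rsad2 and beside it for Ifih1, Ifi204 and Slfn5.

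Among the genes of the signalling arm, Irf7 and Usp18 were called higher and Stat2, Irf9 and Isg15 were not. Irf7, the factor that amplifies interferon output, stood at 23.4, 101.7 and 110.6 CPM, the first from 23 UMIs. Its folds over spleen were 4.35 and 4.73. Usp18, the protease that removes ISG15 and quietens the receptor, stood at 19.3, 76.96 and 74.1 CPM, the first from 19 UMIs. Both genes were low in the spleen library and close together in the muscle libraries.

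The parts of ISGF3 differed less. Stat2 had 22, 76 and 79 UMIs, with folds of 2.21 (1.36 to 3.74) and 1.84 (1.14 to 3.10). Irf9, the subunit that contacts DNA, stood at 137.4, 155.9 and 218.1 CPM, with folds of 1.13 (0.915 to 1.41) and 1.59 (1.30 to 1.94). Isg15, the ubiquitin-like modifier that many interferon-induced ligases attach, missed the threshold in 1 library. It stood at 118.1, 272.6 and 211.8 CPM, with folds of 2.31 (1.88 to 2.86) and 1.79 (1.46 to 2.22). A single spleen cell, the richest in the set, held 24 of its spleen UMIs, or 20.7%. A check added after the data were seen left out the cell richest in the set from each library. Isg15 then passed the rule with a mean log2 fold of 1.34. The muscle cells left out held only 0.718% and 1.23% of the Isg15 UMIs of their libraries. The check could thus only raise the Isg15 folds and adds no support for a call.

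Of the 6 sensors of foreign nucleic acid, only Zbp1 was called. Zbp1, which binds Z-form nucleic acid, stood at 96.7, 233.5 and 263.5 CPM and was 2.42-fold (1.92 to 3.06) and 2.73-fold (2.18 to 3.43) higher. Ddx58, which encodes the RNA sensor RIG-I, stood at 70.2, 120.004 and 86.6 CPM, with folds of 1.71 (1.29 to 2.29) and 1.23 (0.926 to 1.66). Ifih1, which encodes the RNA sensor MDA5, had 36, 57 and 66 UMIs and folds of 1.01 (0.657 to 1.59) and 0.940 (0.617 to 1.45). Ddx58 thus lay above spleen beyond counting error in muscle library 1 only, and the intervals of Ifih1 held 1 in both. Eif2ak2, the RNA-activated kinase PKR, stood at 37.7, 59.4 and 58.96 CPM, with folds of 1.58 and 1.57. The DNA-binding Ifi200 family genes also missed the rule. Ifi203 stood at 234.1, 241.96 and 186.8 CPM with folds of 1.03 and 0.798, and Ifi204 had 24, 39 and 54 UMIs with folds of 1.04 and 1.15.

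The Ifit genes, whose products bind viral RNA, lie together at chr19:34550694-34650009, yet their folds ran from above 10 to below 1. Ifit3 stood at 7.12 CPM in spleen, from 7 UMIs, and at 99.1 and 79.8 CPM in muscle. Ifit3b, also with 7 spleen UMIs, stood at 66.5 and 51.1 CPM in muscle, with folds of 9.34 (4.37 to 23.8) and 7.18 (3.36 to 18.3). The transcripts of Ifit3 and Ifit3b were 97.997% identical over 1697 aligned bases, so reads of one may be counted for the other. Ifit1 stood at 49.9, 160.4 and 112.2 CPM and was 3.22-fold (2.36 to 4.47) and 2.25-fold (1.64 to 3.13) higher. Ifit2 had only 15, 67 and 49 UMIs, with folds of 2.86 (1.62 to 5.40) and 1.67 (0.924 to 3.22), and was not called. Ifit1bl1, a relative of Ifit1 on the other strand between Ifit3 and Ifit3b, went the other way, at 100.8, 61.3 and 78.3 CPM, with folds of 0.608 (0.454 to 0.815) and 0.777 (0.599 to 1.01). It thus stood lowest of the 36 members by mean fold, within the same cluster as Ifit3.

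Of the Oas genes, whose enzymes make the 2-5A signal that activates RNase L, Oas1a was called, though neither in thinned cells nor with ribosomal protein genes left out of the totals. It had 23, 94 and 93 UMIs, or 23.4, 61.3 and 48.5 CPM, and folds of 2.62 (1.65 to 4.33) and 2.07 (1.30 to 3.43). Oas3, on the same stretch of chromosome 5, had 24, 66 and 88 UMIs and folds of 1.76 (1.09 to 2.94) and 1.88 (1.19 to 3.09), just under the rule. Oasl2 had 8, 27 and 30 UMIs, and the intervals of its folds of 2.16 and 1.92 both reached below 1. Oasl1 had 3, 20 and 14 UMIs, too few for the rule, and its 3 spleen UMIs were in 1 cell.

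All 4 measured membrane proteins were called higher, Rtp4 only with ribosomal protein genes in the totals. The Ifitm genes, which block entry of viruses, lie at chr7:140954837-141010770. Ifitm3 had 1 UMI in spleen and 79 and 81 in muscle, or 1.02, 51.5 and 42.3 CPM. Ifitm2 had 3, 24 and 36 UMIs, with folds of 5.13 (1.56 to 26.6) and 6.15 (1.94 to 31.2). Ifitm1 had 0 spleen UMIs and 19 and 22 in muscle, or 4.06-fold and 3.76-fold above a spleen floor set at 3 UMIs, with exact intervals that start at 2.99 and 2.81. All 3 genes were thus at or near 0 in the spleen library. In muscle library 2 a single cell held 13 of the 36 Ifitm2 UMIs and 19 of the 81 Ifitm3 UMIs.

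Bst2, or tetherin, which holds budding virus at the cell surface, stood at 71.2, 281.1 and 216.02 CPM. Its folds were 3.95 (3.06 to 5.15) and 3.03 (2.35 to 3.96). With each cell thinned to 1000 UMIs, a Bst2 UMI was seen in 4.25% of spleen cells (2.14% to 7.47%) and in 17.3% (14.5% to 20.4%) and 14.7% (12.1% to 17.6%) of muscle cells. Rtp4, a receptor chaperone, stood at 65.1, 139.6 and 145.1 CPM, with folds of 2.14 (1.61 to 2.88) and 2.23 (1.69 to 2.97). Every captured cell was sorted as a Treg, so no cell type without these genes was at hand to gauge free RNA.

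The effector enzymes gave 3 calls of 4, of which Rsad2 alone held with ribosomal protein genes left out of the totals. Rsad2, or viperin, which makes a chain-terminating nucleotide, stood at 75.003 and 62.6 CPM in muscle. Spleen gave 5 UMIs of it, all from 1 cell. Mx1, a GTPase that traps viral nucleoprotein, had 16, 87 and 67 UMIs and folds of 3.48 (2.03 to 6.36) and 2.15 (1.23 to 3.97). Isg20, an RNA exonuclease, stood at 118.1, 238.7 and 297.9 CPM, with folds of 2.02 (1.64 to 2.51) and 2.52 (2.06 to 3.11), the first close to the rule. Cmpk2, a nucleotide kinase whose gene lies 12751 bases from Rsad2, disagreed between the muscle libraries. It stood at 23.4, 66.5 and 20.3 CPM, with folds of 2.84 (1.79 to 4.68) and 0.869 (0.507 to 1.52), and 1 cell held 35.9% of its UMIs in muscle library 2.

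Trim30a and Samd9l were called among the ligases and growth regulators, and the call of Trim30a ended under the DESeq2 scaling and when totals left out ribosomal protein genes. Trim30a, a ubiquitin ligase, stood at 126.2, 316.3 and 258.8 CPM, with folds of 2.51 (2.05 to 3.08) and 2.05 (1.68 to 2.52). Samd9l, a restriction factor that slows growth, stood at 44.8, 142.2 and 173.8 CPM, with folds of 3.17 (2.29 to 4.50) and 3.88 (2.83 to 5.44). The Schlafen genes Slfn2 and Slfn5, neighbours on chromosome 11 that act on T cell quiescence or growth, were nearer to spleen. Slfn2 stood at 93.6, 154.6 and 146.6 CPM with folds of 1.65 and 1.57, and Slfn5 at 294.1, 268.7 and 330.8 CPM with folds of 0.914 and 1.12. Herc6, the mouse ligase for ISG15, had 11, 68 and 39 UMIs, and its muscle levels of 44.4 and 20.3 CPM differed by more than 2-fold. Parp14, an ADP-ribosyltransferase, stood at 124.2, 105.004 and 93.4 CPM with folds of 0.846 (0.664 to 1.08) and 0.752 (0.594 to 0.955).

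Ifi27l2a was the member with the most UMIs and stood at 720.6, 1506 and 1549 CPM. Its folds were 2.09 (1.92 to 2.28) and 2.15 (1.98 to 2.34). In cells thinned to 1000 UMIs it was seen in 37.8% of spleen cells (31.9% to 44.1%) and in 60.5% (56.6% to 64.3%) and 60.4% (56.6% to 64.1%) of muscle cells. Ifi35 stood at 36.6, 74.4 and 80.9 CPM, with folds of 2.03 (1.38 to 3.04) and 2.21 (1.53 to 3.27). Xaf1, a pro-apoptotic gene, lay below spleen in muscle library 1 at 0.756-fold (0.602 to 0.951) and above it in muscle library 2 at 1.26-fold (1.04 to 1.54). Ifi44 was barely detected, with 1, 4 and 0 UMIs.

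Some members overlap a neighbour: Irf9 and Ifi203 overlap Rnf31 and Mndal on the same strand, and Irf7 and Rtp4 overlap Phrf1 and Masp1 on the opposite strand. Whether counting used strand is not given in the sources used here, and part of their counts may belong to those neighbours.

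**Figure D3:**
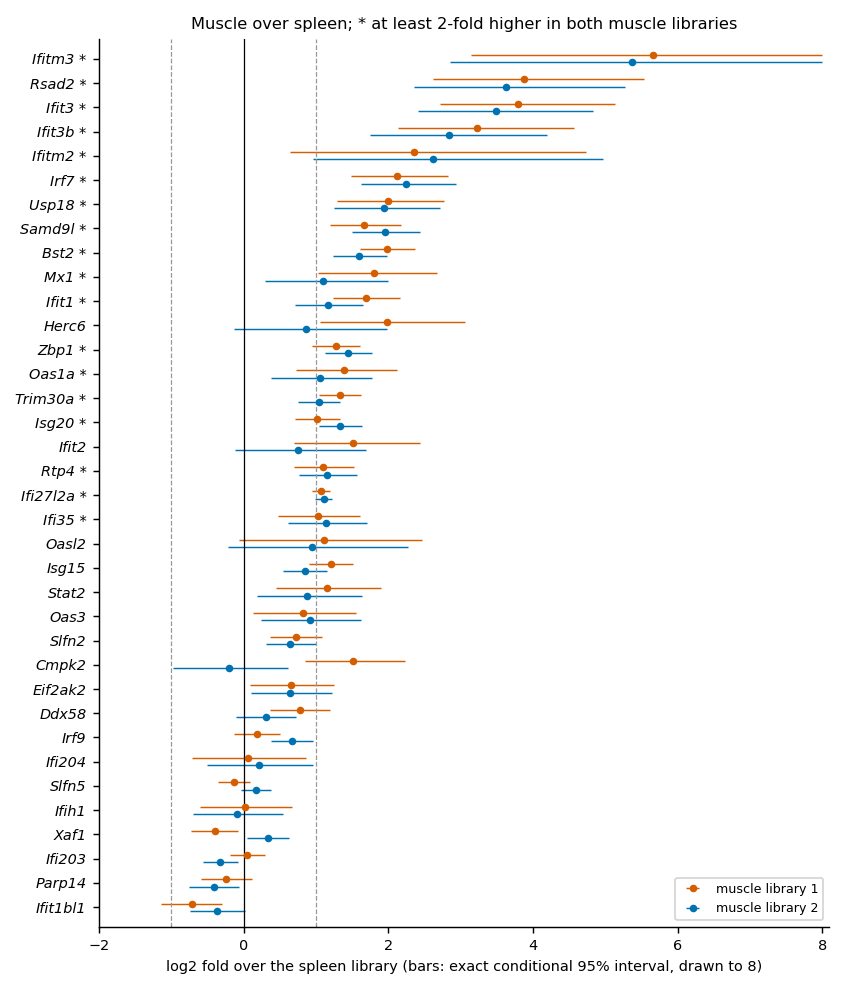
Fold of each muscle library over spleen for the 36 members with at least 50 UMIs (x axis, log2 fold with exact conditional intervals, drawn up to 8, y axis, gene ordered by mean fold). Dashed lines mark 2-fold and an asterisk marks the 18 called members. Ifitm3, Rsad2 and Ifit3 are at the top with wide intervals that come from few spleen UMIs, and Ifit1bl1 is at the bottom.

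Called members carried the longer ISRE motif in 7 of the 13 that had a promoter window, and members not called in 1 of 19, namely Ddx58. The 7 include Ifit3 and Ifit3b, whose printed stretches are identical. The 19 include Oasl1, Ifitm1 and Ifi44, which had too few UMIs to be called. For the shorter core the counts were 9 of 13 and 9 of 19, and for the GAS motif 5 of 13 and 2 of 19. Isg15 and Oas3, which missed the rule in 1 or both muscle libraries, carry the core but not the longer form.

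The members were not spread evenly over cells. In cells thinned to 1000 UMIs (every spleen cell, and all but 26 and 7 shallower cells of muscle libraries 1 and 2), the set averaged 2.83 UMIs per spleen cell and 5.49 and 5.48 per muscle cell. The medians lay closer together, at 2, 3 and 3 UMIs, and the 90th percentiles further apart, at 6, 13 and 13 UMIs. At least 10 UMIs were found in 2.32% of spleen cells (0.855% to 4.97%), against 16.5% (13.7% to 19.6%) and 16.3% (13.6% to 19.3%) of muscle cells. At least 20 were found in 1 spleen cell and in 37 and 28 muscle cells, or 5.71% and 4.08%. The variance over the mean was 2.99 in spleen and 8.83 and 8.23 in muscle. At the other end, 15.8% of spleen cells and 9.41% and 9.02% of muscle cells had no UMI of the set. The libraries thus differed more in their upper tail than in their middle.

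At least 3 UMIs were found in 43.6%, 60.8% and 59.2% of thinned cells. Without thinning the shares were 87.6%, 81.8% and 87.03%, in an order that follows the depth per cell. Without Ifi27l2a the thinned shares were 31.7%, 44.9% and 45.4%.

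**Figure D4:**
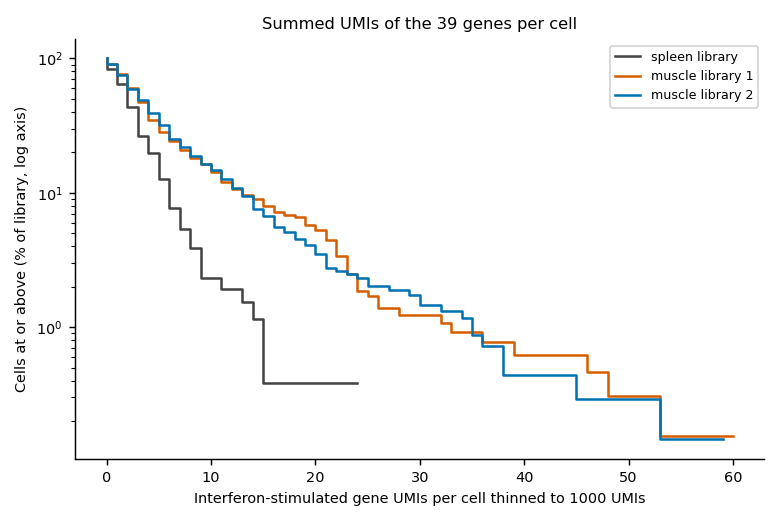
Share of cells (y axis, % of the library, log axis) with at least the number of UMIs of the 39 genes on the x axis, after thinning to 1000 UMIs. The muscle curves run together and reach 60 and 59 UMIs, and the spleen curve drops away above 10 and rests on 1 cell at the highest sums.

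That last spleen cell held UMIs of many members, though it was deeper than the richest muscle cells. Before thinning it held UMIs of 24 of the 39 genes, among 6372 UMIs in all, and 6.36% of all the set's spleen UMIs. It supplied 14 of the 49 spleen UMIs of Ifit1, 10 of 36 of Ifih1, 7 of 16 of Mx1 and all 3 of Oasl1, and none of Rsad2, Ifit3 or Irf7. The richest cells of muscle libraries 1 and 2 held UMIs of 27 and 19 members. Leaving the richest cell out of each library, the rule called 20 members higher, beside 7.51% of all measured genes. The muscle cells left out held only 1.83% and 0.830% of the set's UMIs in their libraries, so this choice of cells raises the set's folds by construction.

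Over the cells of a muscle library the members went up and down together. Correlations are Pearson's r of log(1 + counts per 10000) within 1 library, given as a description with no test, and cells of a library share its depth and processing. Over the 630 pairs of the 36 members the median r was 0.031 in spleen, against 0.15 and 0.13 in muscle, beside medians near 0 over all pairs of measured genes. The share of member pairs above the 95th percentile of all pairs was 16.8% in spleen, against 76.8% and 73.97% in muscle. The set's sum had r of 0.13, 0.15 and 0.079 with the log of a cell's total UMIs. Spleen values rest on fewer cells and on far fewer UMIs of most members, so they are less precise, and a difference in r between tissues was not tested.

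Taking each gene against the sum of all other members, Zbp1 had the highest smaller muscle value, with r of 0.44 and 0.44. Isg15 followed the others at 0.40 and 0.45, Ifit1 at 0.43 and 0.41, Ifi27l2a at 0.41 and 0.41, Ifit3 at 0.42 and 0.40 and Bst2 at 0.40 and 0.40. Isg15 was thus among the genes most tied to the rest although it missed the rule of size. Ifit1bl1, the gene furthest below spleen, still had r of 0.28 and 0.26. At the low end, Ifitm2 had r of 0.042 and 0.085, Eif2ak2 0.071 and 0.22, Herc6 0.13 and 0.074, Oasl2 0.14 and 0.11, and Irf9 0.16 and 0.11. Samd9l, called higher, was also low at 0.12 and 0.21. The median over members was 0.25 and 0.22 in muscle and 0.094 in spleen.

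The tenth of cells with the most UMIs of the other members held a median of 42.4% and 40.3% of a member's UMIs in the muscle libraries, against 8.45% and 8.65% for genes outside the set. In spleen the medians were 17.5% and 7.56%. Ifit3 was among the most concentrated, with 72.5% and 70.5% of its muscle UMIs in those cells, and Rsad2 had 65.1% and 60.4%. Ifi27l2a was spread wider, with 22.6% and 21.1%, and Xaf1 with 13.5% and 19.2%. Ifit1, with 49 spleen UMIs in 8 cells, had 63.1% and 63.8%. Ifitm2, with 3 spleen UMIs, had 10% and 49.8%, shares that rest on only 10 and 17 thinned muscle UMIs.

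Single pairs show the same in counts of cells. In thinned muscle cells with an Isg15 UMI, 24.5% and 25.2% also had Ifit1 (26 and 27 cells), against 4.61% and 2.59% (25 and 15 cells) of those without Isg15. Ifit3 was seen in 31.4% and 35.7% of muscle cells with Ifit1 and in 3.85% and 2.95% of those without. The pair Ifit3 and Ifit3b had the highest r, 0.52 in spleen and 0.80 and 0.77 in muscle, and shared reads between these copies were not tested for. Rsad2 and Cmpk2, neighbours in the genome, had r of 0.45 in muscle library 1 and 0.20 in muscle library 2. Ifitm2 and Ifitm3 had r of 0.27 and 0.48, of which 0.21 and 0.32 were left without the cell with the most Ifitm2.

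**Figure D5:**
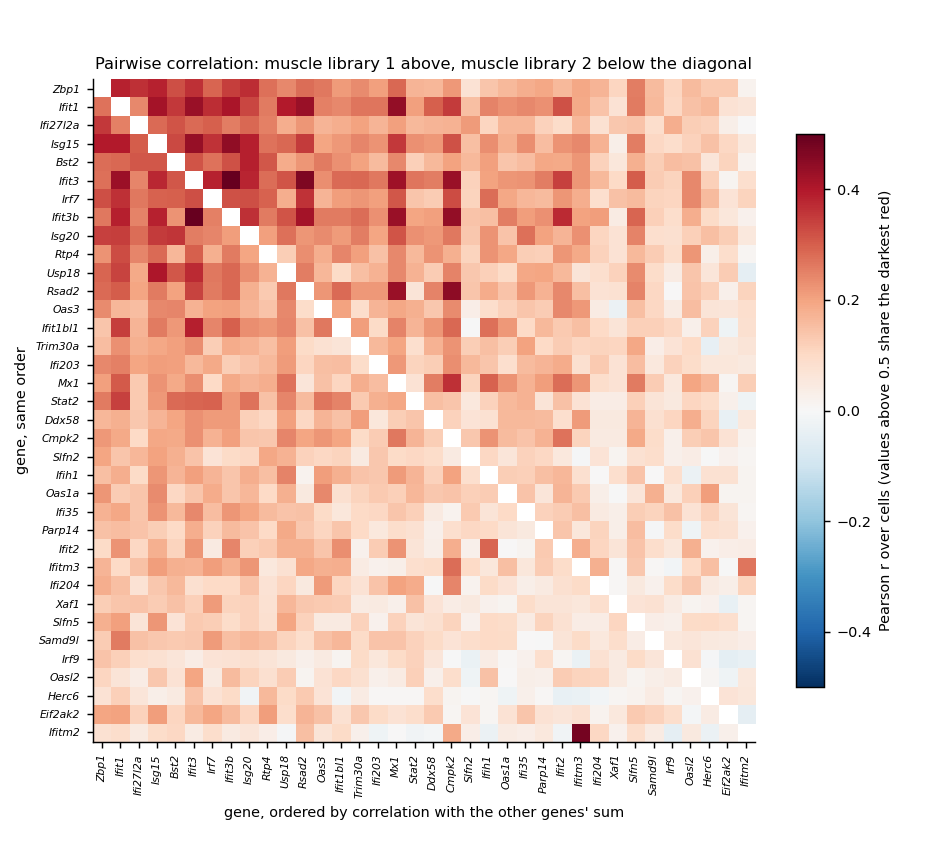
Pearson r over cells for each pair of the 36 members (both axes, gene ordered by its r with the sum of the others), with muscle library 1 above and muscle library 2 below the diagonal. Red is positive and blue negative, on a scale that ends at 0.5. The upper left corner, from Zbp1 and Ifit1 to Isg20, is red on both sides of the diagonal, and the rows of Irf9, Herc6 and Ifitm2 are pale apart from Ifitm2 with Ifitm3.

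Among 7580 other genes, those most like the set's sum in both muscle libraries were named by the smaller of the muscle r values, whose median over these genes was -0.019 and whose 99th percentile was 0.14. Gbp6, a guanylate-binding protein gene, came first with r of 0.40 and 0.40. It was followed by Phf11b (0.34 and 0.34), Igtp (0.33 and 0.32), Tgtp1 (0.37 and 0.31), Gbp10 (0.36 and 0.31) and Irgm1 (0.31 and 0.31). Next were Ifi47 (0.30 and 0.34), Lgals3bp (0.30 and 0.35), Pydc3 (0.36 and 0.30) and Tgtp2 (0.37 and 0.29). Gbp6, Gbp10, Igtp, Irgm1, Ifi47, Tgtp1 and Tgtp2 are interferon-inducible GTPases. Of the 10 only Phf11b was called higher in muscle, 2.31-fold and 2.47-fold, while Gbp6 stood at 1.29-fold and 1.30-fold. Tgtp1 and Tgtp2 are near copies with equal spleen counts of 75 UMIs, so their reads may be shared.

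Upstream of the set, few genes were called. Of 17 interferon genes, 15 had no UMI in any library, Ifna9 had 1 and Ifng had 5, 3 and 13 UMIs, so apart from that 1 UMI no type I interferon transcript was detectable at this depth. Of 22 measured receptor and signalling genes, Ifngr1 and the transcription factors Irf5 and Irf8 were called higher and Ifngr2 lower, with a median log2 fold of -0.03. The share called higher was 13.6%, beside 7.47% of all measured genes. Irf5 was 4.17-fold and 2.95-fold and Irf8 4.13-fold and 3.204-fold higher. Ifngr1, a chain of the interferon gamma receptor, stood at 530.2, 1154 and 1335 CPM, and Ifngr2, the other chain, at 97.7, 37.2 and 30.3 CPM. The type I receptor chain Ifnar1 stood at 138.4, 134.4 and 131.5 CPM and Jak1 at 624.9, 613.7 and 573.96 CPM. Ifnar1 and Jak1 were thus close to spleen, while Irf7 was more than 4-fold higher. The other receptor chain, Ifnar2, stood at 0.797-fold (0.595 to 1.07) and 0.811-fold (0.614 to 1.07). Tyk2 stood at 1.47-fold (1.01 to 2.18) and 1.58-fold (1.10 to 2.30), with both intervals above 1.

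Of 14 measured sensors and adaptors upstream of interferon, Ticam1 and Dhx58, or 14.3%, were called higher and none lower, with a median log2 fold of 0.04. Dhx58, which encodes the sensor LGP2, had 6, 62 and 36 UMIs. Of 58 measured interferon-stimulated genes outside the set, 8, or 13.8% beside 7.47% of all measured genes, were called higher and none lower, with a median log2 fold of 0.39. They were Parp12, Sp100, Phf11a, Phf11b, Phf11d, Ly6a, Helz2 and Mov10. Ly6a, the surface antigen Sca-1, stood at 615.7, 2291 and 2571 CPM. Ly6e and Psmb8, also inducible by interferon, were not called, at 1.51-fold and 1.78-fold and at 1.32-fold and 1.59-fold.

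Markers of other cells that the sort could hold were also summed. The 16 myeloid markers in the table summed to 98.7, 41.1 and 67.3 CPM, highest in spleen. Csf3r gave 31.5, 16.96 and 37.05 CPM of this sum and Itgam 13.2, 12.4 and 14.6 CPM, both highest in muscle library 2. Lyz1 had 1, 9 and 13 UMIs and Lyz2 had 0, 3 and 6. Cd68 had 15 UMIs in spleen and 0 in muscle, and C1qa, C1qb, C1qc, Fcer1g and Tyrobp were also highest in spleen by CPM. Of 4 plasmacytoid dendritic cell markers, Siglech had 3, 7 and 8 UMIs and Cox6a2 had 0, and their sum was 20, 23 and 18 UMIs. The 6 B cell markers summed to 13.2, 13.7 and 12.5 CPM. CD8 and NK cell markers summed to 108.9, 80.9 and 86.1 CPM and endothelial markers to 116.02, 62.6 and 58.96 CPM, both sums highest in spleen. Single CD8 and NK cell markers did not all follow their sum. Cd8b1 peaked in muscle library 2 (52.9, 37.8 and 65.7 CPM). For Nkg7 the peak was in muscle library 1 (23.4, 33.9 and 15.1 CPM). Cd8a, Klrd1, Ncr1, Gzma and Klrb1c were each highest in spleen. Pecam1 alone gave 116.02, 62.6 and 58.4 CPM of the endothelial sum, and Cdh5 and Kdr had 0 UMIs in every library. Fibroblast markers summed to 4.07, 0.652 and 3.13 CPM. Muscle fibre and satellite cell markers summed to 25.4, 25.4 and 42.8 CPM and erythroid markers to 16.3, 22.8 and 37.05 CPM, both highest in muscle library 2. Acta1 alone gave 25.4, 24.1 and 38.6 CPM of the muscle fibre and satellite cell sum. The part of such cells in the results was not tested.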

How the data were processed

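The authors deposited raw UMI counts per gene and cell for 1627 cells; per the submitters' processing notes the reads were handled with TopHat2 and SAMtools on the mm10 build, with no versions, while the sources used here leave the annotation, the use of strand and the choice of cells unstated. Per the labels, cells belong to 3 libraries, and no column was left unmapped (0 columns). Every cell was kept and no doublet caller was run; 0, 12 and 7 cells exceeded 3 times the median UMI count of spleen and muscle libraries 1 and 2. UMIs were summed per library. Folds carry exact conditional binomial (Clopper-Pearson) intervals, levels exact Poisson and shares exact binomial intervals. The intervals take UMIs as independent, although a cell often gives several of a gene. No fit was made. The calling procedure was run on simulated library sums with planted changes larger than 2-fold and no clumping of UMIs in cells. That simulation does not cover calls close to the threshold.

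The members, gene lists and rules were chosen with earlier results of these data known. Values are given for called members and family contrasts, for the 10 other genes most like the sum, and for up to 4 genes of a list beside those called. Cells were thinned with seed 1. Alternatives changed the scaling (edgeR TMM and DESeq2 size factors, used for scaling only, and totals less the ribosomal protein genes), the minimum of UMIs, the size of the fold, cell weights, thinning depth, cells left out, each muscle library alone, the motif and the members summed. Coordinates come from GENCODE M21 on GRCm38, the build of the files. For 23 of the 32 members with a promoter window, the first bases after a start occur somewhere in an annotated transcript of that gene. Scaling factors came from edgeR 4.0.16 and DESeq2 1.42.0 in R 4.3.3. All else ran in Python 3.11.15 with scipy 1.17.1 and numpy 2.4.6, and figures were drawn in matplotlib 3.10.9 from tables made with pandas 2.3.3. A gene of the pathway lists is not reported here.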

Additional observations from a re-analysis of the deposited data

How the results depend on the processing

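No member was called lower under any of the 15 alternatives, and over the 36 members and the 11 alternatives that recompute folds, 15 mean log2 folds left the range between the averaged ends of their counting intervals, with 0 changes of sign in a called member. The count of 18 members called higher was 18 with TMM factors, beside 7.40% of all measured genes. It was 16 with DESeq2 size factors, beside 7.04%, with Isg20 and Trim30a lost. It was 11, beside 5.67%, with totals without ribosomal protein genes, all 11 also called with full totals. Oas1a, Rtp4, Isg20, Mx1, Trim30a, Ifi27l2a and Ifi35 were lost there. At 3-fold the count was 9, beside 2.93% of all measured genes, and at 1.5-fold it was 26, beside 15.9%. With muscle library 2 alone it was 18, beside 10.9%, and with muscle library 1 alone 24, beside 10.3%. The median log2 fold of the members was 0.95 without ribosomal protein genes, 1.31 in thinned cells and 1.31 without the 1 cell with the most UMIs of each gene. Over all measured genes the median was -0.10, 0.06 and 0.18 in these settings, beside 0.05 with full data. In the last setting 1 cell is a larger part of the spleen library, which had the fewest cells, so folds over spleen can rise by construction. With 1 muscle library alone the median of the members ran from 0.99 to 1.18. In thinned cells the rule called 20 members, beside 10.3% of all measured genes. Of these members 14 were called before, Ifit1, Oas1a, Isg20 and Ifi35 were lost, and Stat2, Isg15, Ifih1, Ifi204, Oas3 and Herc6 were gained. The minimum of 50 UMIs was applied to unthinned counts there, so calls in thinned cells can rest on very few spleen UMIs. The gained members had 4, 25, 3, 3, 4 and 1 thinned spleen UMIs in that order, and Ifitm3 had 0 and took the floor of 3. The cause of the changes was not tested. On thinned UMIs the median pairwise r fell to -0.00991 in spleen, below 0, and was 0.0859 and 0.0770 in muscle. For members with at least 200 UMIs it was 0.0520, 0.165 and 0.147. The median r with the other members became 0.292 and 0.262 in muscle on thinned UMIs. The share of cells with at least 1 UMI of the set was 91.1%, 96.6% and 96.2% when thinned to 1500 UMIs, 96.1%, 96.3% and 97.98% without thinning, and 75.7%, 81.6% and 82.97% without Ifi27l2a. The share with at least 3 was 62.2%, 77.4% and 75.99% at 1500 UMIs, 87.6%, 81.8% and 87.03% without thinning, and 31.7%, 44.9% and 45.4% without Ifi27l2a. With the longer form of the motif in place of the core, 25% of members with a window held a match. Where no construction is named, the cause was not tested. Of the 10 most similar genes, 8 stayed without Ifi27l2a and 7 with thinned UMIs. No paired analysis was possible because no result comes from a test and the numbers in the labels only name cells. With 1 spleen library, genes with a few spleen UMIs, such as Ifitm3, have folds known only within wide intervals.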
